A study of Mus musculus with 8 samples.

Results

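The data describe how primary mouse vascular smooth muscle cells that overexpressed green fluorescent protein (GFP) changed in phosphate-rich osteogenic medium. GFP served as the control construct in a series about THOC5, a subunit of the THO complex, which links transcription to mRNA export. GFP cells in osteogenic medium, for which the series design names inorganic phosphate for 6 days, were set against GFP cells in growth medium. Each group had 2 RNA-seq libraries of polyadenylated RNA, so that 4 of the 8 libraries of the series enter this comparison. The other 4 came from THOC5-overexpressing cells, 2 in osteogenic and 2 in growth medium. All cells carried an overexpressed protein, and the labels give the genotype of the GFP cells as wild type. Mouse strain, age, sex, passage, vector and the composition of both media are not given in the labels used here. All genes of the deposited table were members, and 22575 of 27249 had enough signal to be tested. Contractile, matrix, NRF2, p53 and interferon genes were set aside, so the account covers 61 other gene lists and the largest changes outside those sets.

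High extracellular phosphate drives cultured vascular smooth muscle cells away from contraction and towards a state with features of bone-forming cells, a process studied as a model of arterial calcification. Such cells take up phosphate through sodium-coupled transporters and remodel what they secrete. A cell that makes different proteins also adjusts the machinery that builds, folds and degrades them. Chaperones fold new chains, the proteasome degrades ubiquitin-tagged ones, the nucleolus assembles ribosomes, and the transcription factor ATF4 raises amino acid synthesis and tRNA charging when translation is stressed.

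Recovered reads numbered 9838885 and 9683045 in the osteogenic libraries, and 8244941 and 7058681 in the growth libraries. Values below are normalized counts, which are reads divided by a size factor per library. Changes are log2 differences of the normalized count plus 1, osteogenic minus growth, with a standard error and a Benjamini-Hochberg adjusted p from limma. As a check of the labels, Thoc5 had 649.5 and 615 in osteogenic medium, against 458 and 471 in growth medium (change 0.44 ± 0.15, adjusted p 0.065). It had 1780.2 and 1937 in osteogenic medium, against 2155 and 1406 in growth medium, in THOC5 cells. All 4 GFP libraries lay below all 4 THOC5 libraries for this gene. Smooth muscle markers summed to between 12022 and 13920.1 in osteogenic medium, against 25087 and 29299 in growth medium, and 7 of 9 fell. Of 16 macrophage markers 11 were in the table, 6 of them, Ptprc and Adgre1 included, with at most 3 reads in every GFP library. Together they summed to between 685 and 706 in osteogenic medium, against 952 and 1182 in growth medium, and 1 rose and 2 fell. Of 10 endothelial markers 7 were in the table, 1 of them at that floor (Tie1). They summed to between 67.1 and 107 in osteogenic medium, against 110.3 and 153 in growth medium, and 1 fell. Adventitial fibroblast markers summed to between 11778 and 15262 in osteogenic medium, against 37711 and 41986 in growth medium, and 6 of 12 fell while Pi16 and Dpt stayed at or below 3 reads. In bulk RNA, fewer cells of a type and less RNA per cell cannot be told apart.

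In osteogenic medium, 2314 genes rose and 2384 fell at an adjusted p under 0.05, or 10.3% and 10.6% of the genes tested. Of these, 494 rose and 745 fell at least 2-fold. Among the 10663 genes with a mean of at least 50 normalized counts over the 4 libraries, 19.1% rose and 18.7% fell, and most members of the lists below are that abundant. These shares are the background for each list. The median change over all genes tested was 0. With libraries scaled to their totals, 3720 genes rose and 1686 fell, and the all-gene median shifted by 0.13. Changes are read relative to the authors' size factors, under which that median stayed at 0. Osteogenic replicate 1 lay further from growth medium than replicate 2, by a median of 0.12 among genes that rose and 0.13 among genes that fell. Leaving out 1 library lowered the total to between 2067 and 3502 calls, so list counts above 5 are followed by their values without a library wherever these moved by over 1.5 times. The authors' deposited table called 3798 genes for the same comparison, of which 3725 were called here, all in the same direction.

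**Figure D1:**
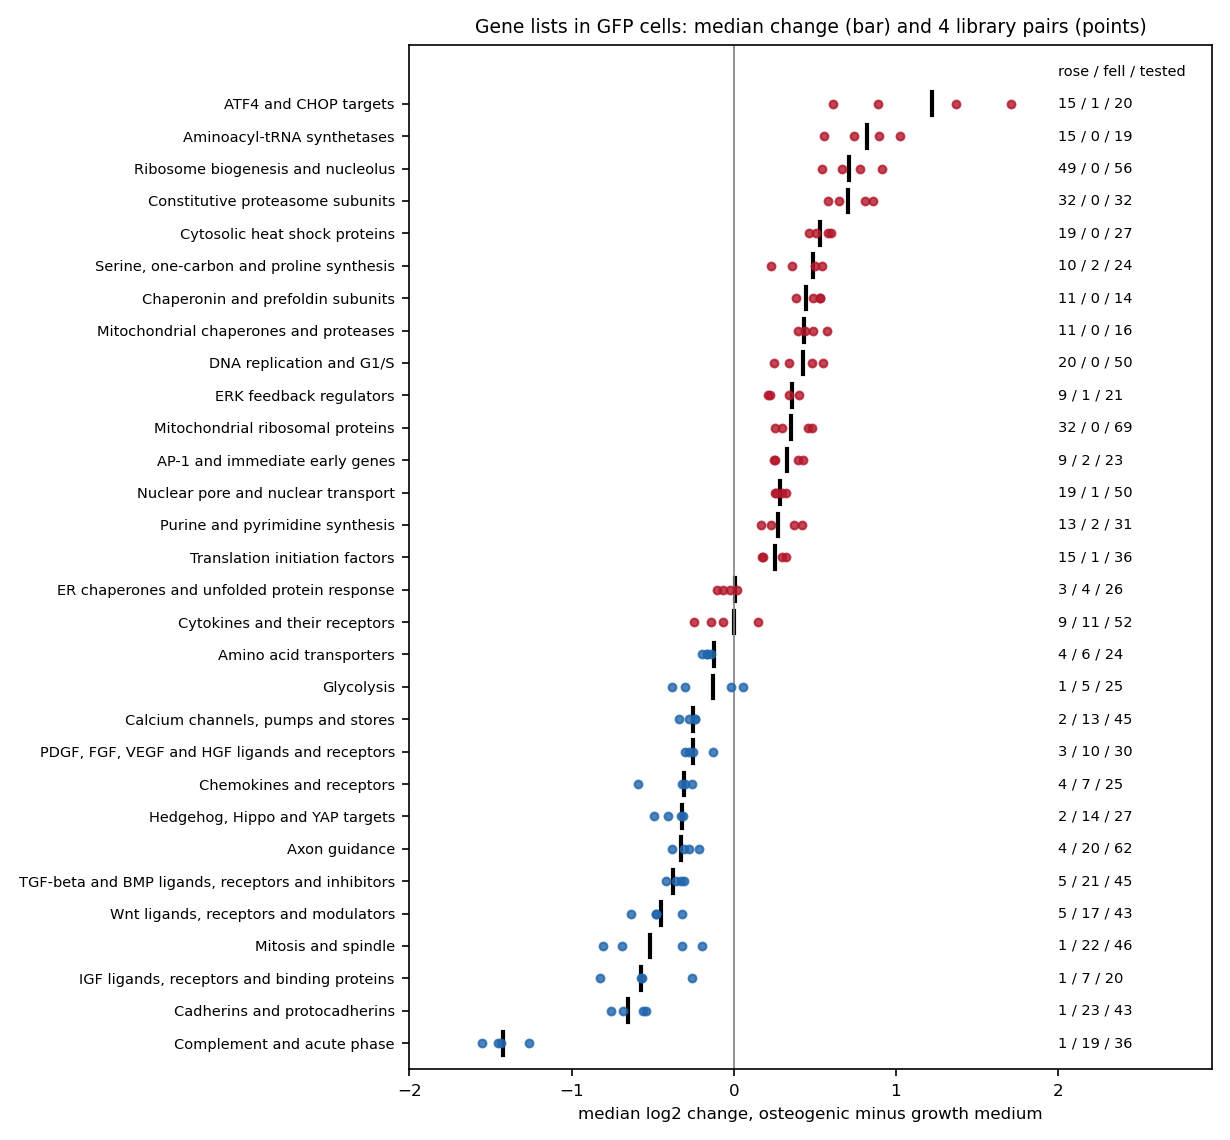
Median log2 change of 30 gene lists, osteogenic minus growth medium in GFP cells (bars), with the median in each of the 4 pairs of an osteogenic and a growth library (points); the text at the right gives members that rose, fell and were tested. Proteasome, nucleolus, synthetase and heat shock lists lie above 0 in all 4 pairs, and complement, cadherin and mitosis lists below it; the widest spread between pairs is that of the ATF4 list.

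Every gene of the constitutive proteasome rose. The list holds the subunits of the core particle, which cuts proteins, and of the regulatory particle, which unfolds them. All 32 tested members rose, by 0.36 to 1.28, with a median of 0.70 (0.58 to 0.86 over the 4 library pairs). Psmd11, a subunit of the lid of the regulatory particle, had 2084 and 1862 in osteogenic medium, against 1009 and 969 in growth medium (change 0.99 ± 0.09, adjusted p 3.3e-05). Psmd14, the deubiquitinase of the lid, had 1345 and 1164 in osteogenic medium, against 650.3 and 618 in growth medium, a change of 0.98 ± 0.09. Psmb3, a subunit of the core, had 841 and 668 in osteogenic medium, against 343 and 278 in growth medium, a change of 1.28 ± 0.13. For these 3 genes both osteogenic libraries lay above both growth libraries, and the higher osteogenic value was always that of replicate 1. The most abundant member, Psmd2, had 2822 and 2432 in osteogenic medium, against 1816 and 1973 in growth medium, with a change of 0.47 ± 0.09, and it lost the call in a fit of only the 4 GFP libraries (adjusted p 0.059), without osteogenic replicate 1 (adjusted p 0.052) and without growth replicate 1 (adjusted p 0.072). With 1 library left out, at least 25 of the 32 members still rose.

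Chaperones outside the endoplasmic reticulum rose with the proteasome. Among cytosolic heat shock proteins and their partners, 19 of 27 rose and 0 fell, with a median of 0.53 (0.47 to 0.60 over the 4 library pairs). Hspa1b, an inducible Hsp70, had 317 and 231 in osteogenic medium, against 62.9 and 67.8 in growth medium (change 2.03 ± 0.19, adjusted p 4.3e-05), and reads of the near-identical Hspa1a may be split between the copies. Dnajb1, an Hsp40 partner of Hsp70, had 981 and 777 in osteogenic medium, against 396 and 392 in growth medium (change 1.15 ± 0.13). Hspb8, a small heat shock protein that works with Bag3, had 1029 and 913 in osteogenic medium, against 485 and 487 in growth medium (change 0.996 ± 0.10). Hsp90ab1, the constitutive Hsp90 and the most abundant member, did not pass, with 23571 and 21894 in osteogenic medium, against 19781 and 21723 in growth medium (adjusted p 0.41). In the chaperonin and prefoldin list, which folds actin and tubulin among other clients, 11 of 14 rose, with a median of 0.44 (0.38 to 0.53 over the 4 library pairs). Prefoldin subunit Pfdn6 had 409 and 323 in osteogenic medium, against 178 and 161 in growth medium (change 1.10 ± 0.13). Between 13 and 16 cytosolic heat shock genes rose with 1 library left out, and the chaperonin count was 6 without osteogenic replicate 1, 6 without growth replicate 1 and 6 without growth replicate 2.

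Mitochondrial chaperones and proteases moved the same way, with 11 of 16 risen and a median of 0.43 (0.40 to 0.57 over the 4 library pairs). Hspd1, the Hsp60 chaperonin of the matrix, had 3233 and 2750.4 in osteogenic medium, against 1576 and 1563 in growth medium (change 0.93 ± 0.09, adjusted p 6.9e-05). Hspe1, its Hsp10 lid, had 1123 and 942 in osteogenic medium, against 510.4 and 397 in growth medium, with a change of 1.19 ± 0.15. These genes overlap on the genome and share a promoter region, so reads where they overlap cannot be separated. Hspa9, the mitochondrial Hsp70, was the most abundant of the group with 15706 and 13506 in osteogenic medium, against 7485 and 6237 in growth medium (change 1.09 ± 0.15). The list of endoplasmic reticulum chaperones and unfolded protein response genes had 3 of 26 risen, 4 fallen and a median of 0.01 (-0.10 to 0.02 over the 4 library pairs). P4hb, the protein disulphide isomerase that also serves collagen hydroxylation, fell, with 7458 and 7986 in osteogenic medium, against 13460.0 and 16634 in growth medium (change -0.96 ± 0.13). Xbp1, the transcription factor activated by splicing under ER stress, fell in total transcript (change -0.41 ± 0.08). Ern1, which encodes the IRE1 enzyme that splices it, rose (change 0.55 ± 0.09). The mitochondrial count was 5 without osteogenic replicate 1, 6 without growth replicate 1 and 5 without growth replicate 2.

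Genes that build ribosomes rose together. Of 56 tested genes of ribosome biogenesis and the nucleolus, 49 rose and 0 fell, with a median of 0.71 (0.55 to 0.92 over the 4 library pairs). Nop2, an rRNA methyltransferase of the nucleolus, had 1136 and 898 in osteogenic medium, against 527 and 477 in growth medium (change 1.01 ± 0.12, adjusted p 2.4e-04). Riok2, a kinase of the small subunit's last steps, had 895 and 835 in osteogenic medium, against 486 and 467 in growth medium (change 0.86 ± 0.09). Tsr1, a small subunit assembly factor, had 726 and 713 in osteogenic medium, against 421 and 369.5 in growth medium (change 0.87 ± 0.10). Ncl, which encodes nucleolin and was the most abundant member, had 9049 and 8073 in osteogenic medium, against 5788 and 6145 in growth medium (change 0.52 ± 0.09) and lost the call without growth replicate 1 (adjusted p 0.052). All 4 genes were higher in both osteogenic libraries than in either growth library. The count of risen members was 21 without osteogenic replicate 1, 30 without growth replicate 1 and 19 without growth replicate 2. Gas5, a noncoding host of small nucleolar RNAs, also rose, with 2529 and 2142 in osteogenic medium, against 1370.5 and 1252 in growth medium (change 0.83 ± 0.10). The E-box CACGTG lay in 11 of 50 (22.0%) of the ribosome biogenesis promoters, against 1250 of 13355 (9.36%) of all promoters matched. Higher shares lay in lists with 0 falls, at 4 of 12 (33.3%) for aminoacyl-tRNA synthetases and 3 of 12 (25.0%) for mitochondrial chaperones and proteases. They also lay in lists with falls or mixed calls, such as 14 of 44 (31.8%) for the lysosome and 5 of 16 (31.2%) for the IGF list. Motif shares here and below count every tested member with a matched promoter, whatever its change. They describe which genes a list holds and not the response to the medium. The promoters of Nop2 and Tsr1 are printed here, in RefSeq's GRCm38.p6 table from 250 bases before to 50 after the start, because both were among the members with the smallest adjusted p and hold that motif. Capitals mark each CACGTG, which reads the same on both strands.
Nop2, chr6:125131633-125131932, + strand: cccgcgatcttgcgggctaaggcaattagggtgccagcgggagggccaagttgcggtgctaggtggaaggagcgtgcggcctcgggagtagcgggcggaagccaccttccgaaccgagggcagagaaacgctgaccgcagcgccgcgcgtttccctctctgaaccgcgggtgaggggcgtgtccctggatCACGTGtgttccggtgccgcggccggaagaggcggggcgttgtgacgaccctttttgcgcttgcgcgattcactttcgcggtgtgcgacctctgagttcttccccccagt
Tsr1, chr11:74897830-74898129, + strand: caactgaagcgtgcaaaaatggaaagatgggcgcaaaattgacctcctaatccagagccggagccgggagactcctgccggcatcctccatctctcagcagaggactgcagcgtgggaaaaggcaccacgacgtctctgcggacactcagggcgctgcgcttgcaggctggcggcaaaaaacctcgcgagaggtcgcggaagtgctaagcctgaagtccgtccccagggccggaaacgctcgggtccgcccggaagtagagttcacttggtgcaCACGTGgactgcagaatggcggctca

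Other parts of the translation apparatus moved less. Among translation initiation factors 15 of 36 rose and 1 fell, with a median of 0.26 (0.17 to 0.32 over the 4 library pairs). Eif4e, the cap-binding protein, had 559 and 552 in osteogenic medium, against 347 and 312 in growth medium (change 0.75 ± 0.11). The single fall was Eif4b, a helper of the eIF4A helicase, with 5397 and 5556 in osteogenic medium, against 8053 and 7867 in growth medium (change -0.54 ± 0.08). Mitochondrial ribosomal proteins rose in 32 of 69 cases with 0 falls and a median of 0.35 (0.26 to 0.48 over the 4 library pairs). Mrps31 changed most surely, with 352 and 297 in osteogenic medium, against 159.7 and 150.2 in growth medium (change 1.06 ± 0.13). The most abundant of them, Mrpl33, had 1909 and 1821 in osteogenic medium, against 1870.4 and 1818 in growth medium and did not pass (adjusted p 0.92). Tomm70a, an import receptor of the outer mitochondrial membrane, had 2035 and 1971 in osteogenic medium, against 1086 and 1024 in growth medium (change 0.93 ± 0.09). Nuclear pore and transport genes rose in 19 of 50, led by the import adaptor Kpna1 with 699.7 and 657 in osteogenic medium, against 365 and 300.4 in growth medium (change 1.03 ± 0.15). Leaving out 1 library reduced these counts. For initiation factors the count was 8 without osteogenic replicate 1, 8 without growth replicate 1 and 5 without growth replicate 2, for mitochondrial ribosomal proteins 4 without osteogenic replicate 1, 12 without growth replicate 1 and 7 without growth replicate 2, and for the nuclear pore 10 without osteogenic replicate 1, 9 without growth replicate 1 and 7 without growth replicate 2.

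Genes of tRNA charging rose, and genes of the ATF4 response rose with a wide difference between the growth libraries. Of 19 cytosolic aminoacyl-tRNA synthetases 15 rose and 0 fell, with a median of 0.82 (0.55 to 1.03 over the 4 library pairs). Wars, which charges tryptophan and is also an interferon-inducible gene, had 1103 and 888 in osteogenic medium, against 385 and 323 in growth medium (change 1.49 ± 0.15, adjusted p 5.2e-05). Rars, which charges arginine, had 2574 and 2076 in osteogenic medium, against 1169 and 1074 in growth medium (change 1.04 ± 0.12). Neither gene lost its call when a library was left out. Nars, which charges asparagine and was the most abundant member, had 7690.5 and 6564 in osteogenic medium, against 4194 and 3000.2 in growth medium (change 1.002 ± 0.19). Nars lost the call without osteogenic replicate 1 and without growth replicate 2. The count of risen synthetases was 4 without osteogenic replicate 1 and 3 without growth replicate 2.

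Of 20 ATF4 and CHOP target genes 15 rose and 1 fell, with a median of 1.22 (0.61 to 1.71 over the 4 library pairs). Asns, asparagine synthetase, had 3381 and 2561 in osteogenic medium, against 1134 and 683 in growth medium (change 1.74 ± 0.30, adjusted p 0.0019). Atf3, a transcription factor induced by ATF4, had 214 and 171 in osteogenic medium, against 64.1 and 22.6 in growth medium (change 2.30 ± 0.49). Atf4 itself had 4715 and 4072 in osteogenic medium, against 2827 and 1522 in growth medium (change 1.08 ± 0.31). With 1 library left out, Asns lost the call without osteogenic replicate 1 (adjusted p 0.069) and without growth replicate 2 (adjusted p 0.093), Atf3 lost it without osteogenic replicate 1 (adjusted p 0.12), without osteogenic replicate 2 (adjusted p 0.061) and without growth replicate 2 (adjusted p 0.15), and Atf4 lost it without osteogenic replicate 1 (adjusted p 0.24), without osteogenic replicate 2 (adjusted p 0.13), without growth replicate 1 (adjusted p 0.058) and without growth replicate 2 (adjusted p 0.35). In all 3 the growth libraries differed from each other, replicate 1 being the higher, by a median over the list of 0.62. In THOC5 cells in growth medium Asns had 1411 and 669, so replicate 1 was the higher there as well. The number of ATF4 and CHOP targets that rose was 1 without osteogenic replicate 1, 8 without osteogenic replicate 2, 8 without growth replicate 1 and 0 without growth replicate 2. Gdf15, a secreted stress cytokine, had 577 and 376 in osteogenic medium, against 191 and 58.5 in growth medium (change 2.13 ± 0.46), and lost the call without osteogenic replicate 1 (adjusted p 0.14) and without growth replicate 2 (adjusted p 0.12). Cth, the last enzyme of cysteine synthesis from methionine, had 157 and 126 in osteogenic medium, against 38.5 and 11.96 in growth medium (change 2.65 ± 0.69), and lost the call without osteogenic replicate 1 (adjusted p 0.19), without osteogenic replicate 2 (adjusted p 0.12), without growth replicate 1 (adjusted p 0.072) and without growth replicate 2 (adjusted p 0.27).

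Serine and one-carbon synthesis held 10 risen and 2 fallen genes of 24, with a median of 0.49 (0.23 to 0.55 over the 4 library pairs). Psph, which makes serine from phosphoserine, had 398 and 312 in osteogenic medium, against 111 and 67.8 in growth medium (change 2.01 ± 0.33). It overlaps the chaperonin gene Cct6a, and it lost the call without osteogenic replicate 1 (adjusted p 0.053) and without growth replicate 2 (adjusted p 0.073). Aldh1l2, a mitochondrial folate enzyme, had 1530.0 and 1538 in osteogenic medium, against 832 and 883 in growth medium (change 0.84 ± 0.11), with growth libraries close to each other and no call lost without a library. The count of risen members was 2 without osteogenic replicate 1, 6 without growth replicate 1 and 2 without growth replicate 2. Of 24 plasma membrane amino acid carriers 4 rose and 6 fell. Slc38a2, a sodium-coupled carrier of small neutral amino acids, fell, with 6429 and 7345 in osteogenic medium, against 11291 and 11586 in growth medium (change -0.74 ± 0.09). Slc7a6, an exchanger of cationic and neutral amino acids, fell too, with 1012 and 1032 in osteogenic medium, against 1635 and 1642 in growth medium (change -0.68 ± 0.08). The amino acid response element TGATGNAA, searched on both strands, lay in 6 of 17 (35.3%) of the ATF4 and CHOP target promoters and in 5 of 12 (41.7%) of the synthetase promoters, against 316 of 13355 (2.37%) of all promoters matched. The next highest list was that of amino acid carriers, with 2 of 18 (11.1%). The ATF4 list was chosen as targets of a factor that binds this motif, so a high share was favoured by the choice. Its link to the medium response was not tested. Asns and Atf3 are printed as members described above that hold it, from the same table, with the matches in capitals.
Asns, chr6:7693160-7693459, - strand: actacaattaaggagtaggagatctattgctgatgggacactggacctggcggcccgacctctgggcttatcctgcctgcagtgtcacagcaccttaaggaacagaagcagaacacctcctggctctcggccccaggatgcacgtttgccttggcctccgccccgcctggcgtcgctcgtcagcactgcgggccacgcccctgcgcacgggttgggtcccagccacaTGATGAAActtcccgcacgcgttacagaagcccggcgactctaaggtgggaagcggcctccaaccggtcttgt
Atf3, chr1:191183284-191183583, - strand: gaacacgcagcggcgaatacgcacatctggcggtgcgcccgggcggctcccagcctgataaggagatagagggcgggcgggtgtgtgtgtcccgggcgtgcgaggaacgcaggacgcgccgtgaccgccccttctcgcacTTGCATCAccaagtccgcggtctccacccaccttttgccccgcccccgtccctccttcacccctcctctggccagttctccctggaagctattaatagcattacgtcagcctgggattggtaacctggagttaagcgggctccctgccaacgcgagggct

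**Figure D2:**
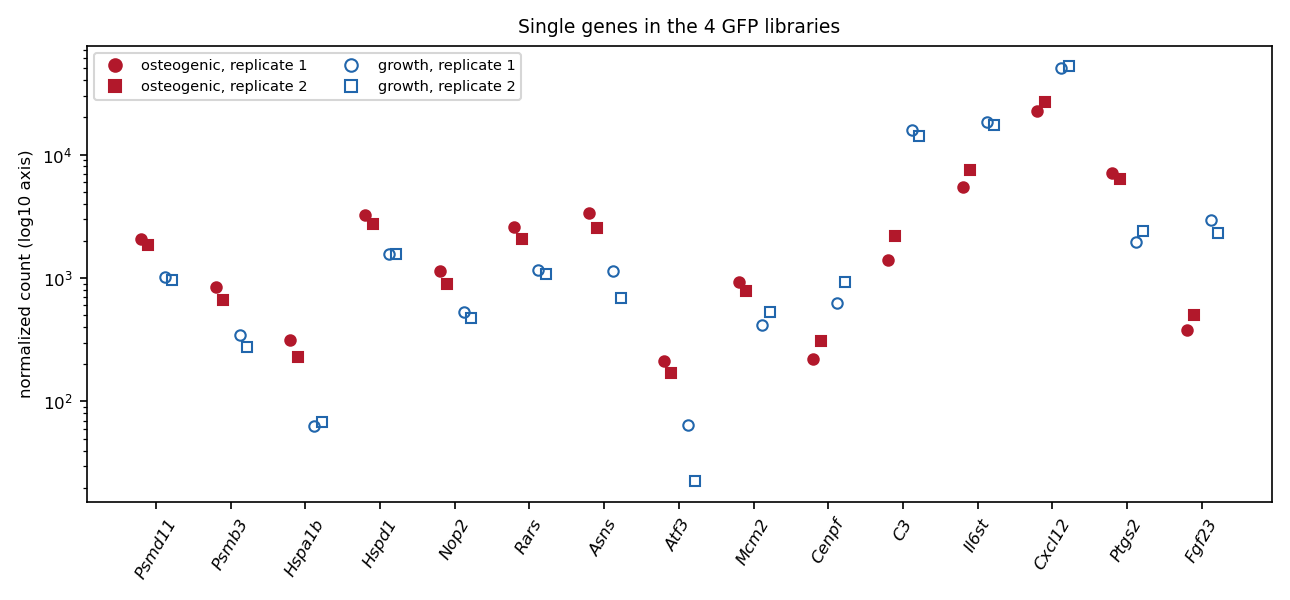
Normalized counts of 15 genes in the 4 GFP libraries on a log10 axis, osteogenic libraries (filled) left of growth libraries (open), with replicate 1 as circles and replicate 2 as squares. Psmd11 and Nop2 have growth replicates close together, whereas Asns and Atf3 are higher in growth replicate 1 than in growth replicate 2 and Cenpf is lower in it.

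Calls among cell cycle genes ran higher for DNA replication and lower for mitosis. Replication duplicates the genome in S phase and mitosis separates the copies. Of 50 genes of DNA replication and the G1/S step 20 rose and 0 fell, with a median of 0.43 (0.25 to 0.55 over the 4 library pairs). Mcm2, a subunit of the replicative helicase, had 931 and 784 in osteogenic medium, against 417 and 534 in growth medium (change 0.85 ± 0.14, adjusted p 0.0014). Pcna, the sliding clamp, had 739 and 614 in osteogenic medium, against 322 and 428 in growth medium (change 0.86 ± 0.16) and lost the call without osteogenic replicate 1 (adjusted p 0.068) and without growth replicate 1 (adjusted p 0.07). Ccnd1, cyclin D1, had 2232 and 2022 in osteogenic medium, against 1309 and 1373 in growth medium (change 0.66 ± 0.09). The more abundant Ccnd2 did not pass, with 8884 and 9494 in osteogenic medium, against 9129 and 11249.9 in growth medium (adjusted p 0.44). The count of risen replication genes was 2 without osteogenic replicate 1, 8 without osteogenic replicate 2, 2 without growth replicate 1 and 11 without growth replicate 2.

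Of 46 genes of mitosis and the spindle 1 rose and 22 fell, with a median of -0.52 (-0.81 to -0.20 over the 4 library pairs). Cenpf, a kinetochore protein of late G2 and mitosis, had 219.7 and 310.4 in osteogenic medium, against 622 and 921 in growth medium (change -1.53 ± 0.21, adjusted p 4.1e-04). Ccnb2, cyclin B2, had 97.7 and 96.6 in osteogenic medium, against 169 and 183 in growth medium (change -0.85 ± 0.12). Kif14, a kinesin of cytokinesis, had 83.03 and 85.9 in osteogenic medium, against 162 and 231 in growth medium (change -1.19 ± 0.18). All 3 were lower in both osteogenic libraries than in either growth library. Top2a, topoisomerase II alpha and the most abundant member, had 1616 and 1885 in osteogenic medium, against 2320.2 and 3111 in growth medium (change -0.62 ± 0.14) and lost the call in a fit of only the 4 GFP libraries (adjusted p 0.085), without osteogenic replicate 1 (adjusted p 0.15) and without growth replicate 2 (adjusted p 0.16). Growth replicate 1 was below growth replicate 2 in both lists, by medians of 0.31 for replication and 0.43 for mitosis, and the part of this difference in the results was not tested. The count of fallen mitosis genes was 5 without osteogenic replicate 1 and 4 without growth replicate 2. The cell cycle gene motif TTTGAA, which is short and was searched on both strands, lay in 29 of 38 (76.3%) of the mitosis promoters, against 1736 of 13355 (12.999%) of all promoters matched. The CCAAT box lay in 28 of 38 (73.7%) of the mitosis promoters and 25 of 40 (62.5%) of the replication promoters, against 5080 of 13355 (38.0%) of all. It was more frequent still in the lists of cholesterol synthesis, with 15 of 16 (93.8%), and endoplasmic reticulum chaperones, with 19 of 22 (86.4%). For TTTGAA the next highest list was that of chemokines, with 6 of 20 promoters. These shares count listed members whether or not they fell, and a link to the medium response was not tested. The promoters of Ccnb2 and Cenpf, printed from the same table, show both motifs in capitals on either strand, with 0 overlaps between matches.
Ccnb2, chr9:70421505-70421804, - strand: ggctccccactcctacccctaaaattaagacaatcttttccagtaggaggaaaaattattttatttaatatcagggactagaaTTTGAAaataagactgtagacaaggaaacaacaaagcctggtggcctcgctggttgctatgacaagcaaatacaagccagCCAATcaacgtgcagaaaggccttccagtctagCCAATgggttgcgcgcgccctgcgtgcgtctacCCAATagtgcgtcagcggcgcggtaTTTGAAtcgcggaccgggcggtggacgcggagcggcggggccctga
Cenpf, chr1:189688037-189688336, - strand: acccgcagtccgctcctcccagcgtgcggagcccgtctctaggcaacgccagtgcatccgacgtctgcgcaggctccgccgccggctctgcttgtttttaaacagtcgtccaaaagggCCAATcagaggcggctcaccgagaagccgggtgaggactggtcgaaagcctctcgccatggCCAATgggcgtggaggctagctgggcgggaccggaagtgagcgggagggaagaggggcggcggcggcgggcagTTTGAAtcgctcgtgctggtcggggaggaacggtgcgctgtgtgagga

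**Figure D3:**
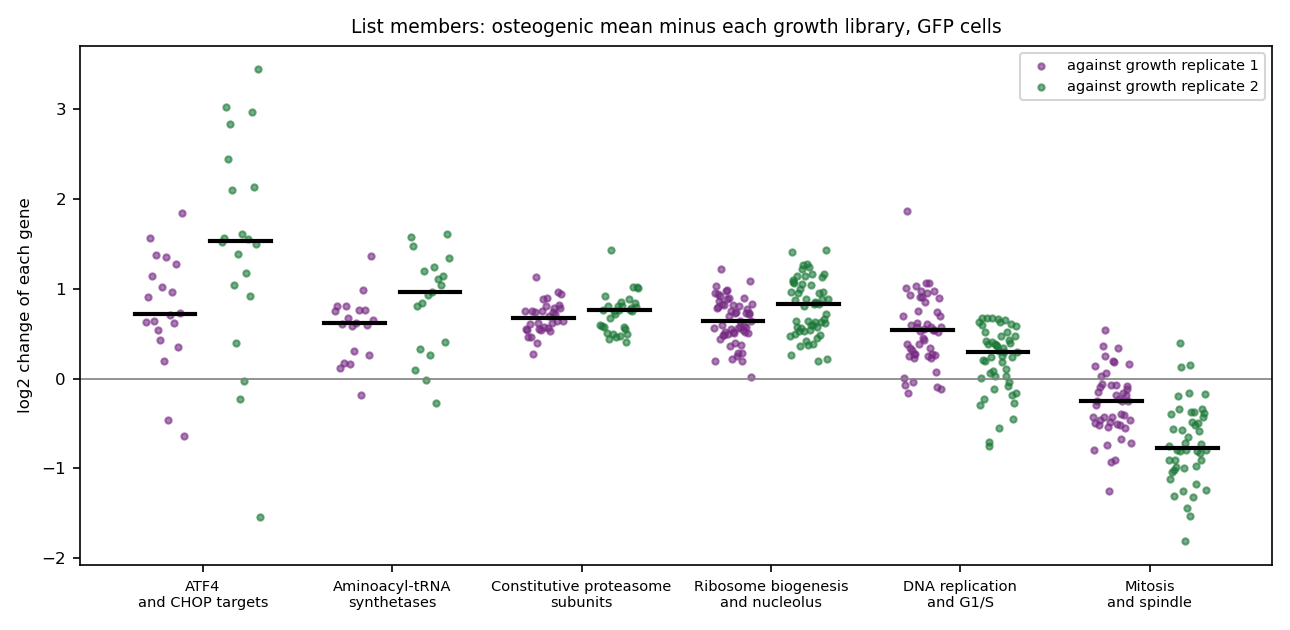
Log2 change of each tested member of 6 lists, osteogenic mean minus growth replicate 1 (left of each pair) and minus growth replicate 2 (right of each pair), with the median as a bar. Replication lies mostly above 0 and mitosis mostly below it against either growth library, and the ATF4 list has a higher median against growth replicate 2 than against replicate 1.

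The secreted proteins of the acute phase and complement had the lowest median of the 61 lists. Of 36 tested genes 19 fell and 1 rose, with a median of -1.43 (-1.55 to -1.26 over the 4 library pairs), and the count of falls was between 18 and 20 with any 1 library left out. Unlike most lists, fewer of its genes were abundant: 16 of the 36 had a mean of at least 50. Of these 16, 12 fell and 1 rose. C3, the central complement component, had 1389 and 2199 in osteogenic medium, against 15924 and 14017 in growth medium (change -3.09 ± 0.18, adjusted p 2.8e-06). Saa3, a serum amyloid A of inflamed tissue, had 2497 and 3369 in osteogenic medium, against 14794 and 12892 in growth medium (change -2.25 ± 0.14). Lcn2, lipocalin 2, which binds bacterial iron carriers, had 1387 and 1734 in osteogenic medium, against 6885 and 6224 in growth medium (change -2.08 ± 0.13). These 3 transcripts were abundant, and both osteogenic values lay far below both growth values. A2m, alpha-2-macroglobulin, a broad protease trap, had 8.65 and 19.7 in osteogenic medium, against 435 and 691 in growth medium (change -5.28 ± 0.38). Serpina3n, a serine protease inhibitor, had 125 and 281 in osteogenic medium, against 2213 and 1725 in growth medium (change -3.37 ± 0.27). C3 is also in the fibroblast marker list, whose sums are given above, and the part of those cells in the fall was not tested.

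Among cytokines and their receptors, the genes with the smallest adjusted p included falls. Il6st, the shared receptor subunit gp130, had 5455 and 7461 in osteogenic medium, against 18492 and 17314 in growth medium (change -1.49 ± 0.13). Lifr, the leukaemia inhibitory factor receptor, had 453 and 557 in osteogenic medium, against 1176 and 1178 in growth medium (change -1.23 ± 0.11). Socs3, the feedback inhibitor of gp130, had 465 and 549 in osteogenic medium, against 1352 and 1141 in growth medium (change -1.29 ± 0.11). In the whole list of cytokines and their receptors 9 of 52 rose and 11 fell, with a median of 0 (-0.25 to 0.15 over the 4 library pairs). The count of rises was 3 without osteogenic replicate 1, 5 without growth replicate 1 and 4 without growth replicate 2. Chemokines were mixed, with 4 risen and 7 fallen of 25. Ccl2, the main attractant of monocytes, rose, with 3415 and 3169.9 in osteogenic medium, against 1493 and 1430.3 in growth medium (change 1.17 ± 0.10, adjusted p 2.3e-05). Cxcl12, the ligand of CXCR4, fell, with 22629 and 26601 in osteogenic medium, against 50134 and 51869 in growth medium (change -1.06 ± 0.12). Its scavenger receptor Ackr3 also fell, with 151 and 252 in osteogenic medium, against 577 and 643 in growth medium (change -1.64 ± 0.18).

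Prostaglandin synthesis changed at its entry and at its prostacyclin branch in opposite directions. Ptgs2, which encodes cyclooxygenase 2, had 7076 and 6304 in osteogenic medium, against 1948 and 2381 in growth medium (change 1.63 ± 0.12, adjusted p 9.1e-06). Pla2g4a, the cytosolic phospholipase that frees arachidonic acid, had 3436 and 3695 in osteogenic medium, against 2185 and 2256 in growth medium (change 0.68 ± 0.08). Ptgis, prostacyclin synthase, fell, with 1835 and 1892 in osteogenic medium, against 3074 and 2829 in growth medium (change -0.66 ± 0.08). The prostaglandin E2 receptor Ptger3 fell, with 62.3 and 75.1 in osteogenic medium, against 265 and 237 in growth medium (change -1.86 ± 0.14). In the list of prostaglandin, leukotriene and nitric oxide synthesis 8 of 29 rose and 5 fell, and the count of rises was 3 without osteogenic replicate 1, 5 without osteogenic replicate 2, 4 without growth replicate 1 and 4 without growth replicate 2.

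Receptors by which smooth muscle cells receive mitogens were among the genes that fell. In the list of PDGF, FGF, VEGF and HGF genes 10 of 30 fell and 3 rose, with a median of -0.25 (-0.30 to -0.13 over the 4 library pairs). Pdgfrb, a PDGF receptor of mural cells, had 2372 and 3158 in osteogenic medium, against 7102 and 5841 in growth medium (change -1.23 ± 0.14). Pdgfra, which is also in the fibroblast marker list, had 889 and 1037 in osteogenic medium, against 2107 and 2114 in growth medium (change -1.14 ± 0.09, adjusted p 1.1e-05). Vegfd, a lymphatic growth factor, had 272 and 561 in osteogenic medium, against 2331 and 2075 in growth medium (change -2.49 ± 0.24). Vegfa, the most abundant member, rose, with 10599 and 9434 in osteogenic medium, against 7667 and 7979.8 in growth medium (change 0.35 ± 0.09), but lost the call in a fit of only the 4 GFP libraries (adjusted p 0.096), without osteogenic replicate 1 (adjusted p 0.078), without growth replicate 1 (adjusted p 0.1) and without growth replicate 2 (adjusted p 0.076). In the IGF list 7 of 20 fell, with a median of -0.57 (-0.82 to -0.25 over the 4 library pairs). Its members included the receptor Igf1r with 2471 and 2997 in osteogenic medium, against 4439 and 4336 in growth medium (change -0.69 ± 0.10) and the binding protein Igfbp7 with 1675 and 1809 in osteogenic medium, against 3817 and 3569 in growth medium (change -1.08 ± 0.09). Egfr, the EGF receptor, had 1466 and 1741 in osteogenic medium, against 3101 and 2738 in growth medium (change -0.87 ± 0.10). The PDGF, FGF, VEGF and HGF count was 6 without osteogenic replicate 1 and 6 without growth replicate 1, and the IGF count was 4 without growth replicate 2.

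Feedback genes of the ERK kinase pathway, which such receptors activate, rose in 9 of 21 cases and fell in 1. Dusp4, a nuclear ERK phosphatase, had 2563 and 2022 in osteogenic medium, against 1013 and 1030.2 in growth medium (change 1.16 ± 0.12, adjusted p 8.1e-05). Etv4, an ETS transcription factor, had 392 and 277 in osteogenic medium, against 142 and 159.5 in growth medium (change 1.12 ± 0.16). The fall was Spry1, Sprouty 1, with 67.5 and 78.7 in osteogenic medium, against 184 and 138 in growth medium (change -1.12 ± 0.16). Among AP-1 and immediate early genes 9 of 23 rose and 2 fell. Fosb, a FOS family partner of JUN, had 101 and 83.2 in osteogenic medium, against 18.6 and 13.3 in growth medium (change 2.47 ± 0.30). Fosl2, another family member at far higher level, fell, with 9991 and 11784 in osteogenic medium, against 17442 and 17298 in growth medium (change -0.68 ± 0.10). The ERK count was 5 without osteogenic replicate 1, and the AP-1 count was 3 without osteogenic replicate 1, 5 without osteogenic replicate 2, 5 without growth replicate 1 and 4 without growth replicate 2.

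Lists of developmental pathways held more falls than rises. Members that did not pass numbered 19 of 45 in the TGF-beta and BMP list and 21 of 43 in the Wnt list. They numbered 11 of 27 in the Hedgehog, Hippo and YAP list and 15 of 20 in the Notch list. In the TGF-beta and BMP list 21 of 45 fell and 5 rose, with a median of -0.38 (-0.42 to -0.31 over the 4 library pairs). Tgfb3, a TGF-beta ligand, had 527 and 639 in osteogenic medium, against 1439 and 1394 in growth medium (change -1.29 ± 0.10, adjusted p 1.1e-05). Inhbb, the beta-B subunit of activins, had 151 and 206 in osteogenic medium, against 752 and 609 in growth medium (change -1.93 ± 0.15). Gdf6, a BMP-family ligand of joint formation, had 10.4 and 8.05 in osteogenic medium, against 132 and 133 in growth medium (change -3.72 ± 0.18). The abundant BMP antagonist Grem1 did not pass, with 9207 and 8154 in osteogenic medium, against 8692 and 7982 in growth medium (adjusted p 0.79). In the Wnt list 17 of 43 fell and 5 rose, with a median of -0.45 (-0.63 to -0.32 over the 4 library pairs). Both a receptor and an antagonist were among the falls. Fzd1, a Frizzled receptor, had 214 and 244 in osteogenic medium, against 530.2 and 522 in growth medium (change -1.20 ± 0.10), and Sfrp2, a secreted modulator, had 9.51 and 10.7 in osteogenic medium, against 113 and 97.04 in growth medium (change -3.25 ± 0.18). Among Hedgehog, Hippo and YAP genes 14 of 27 fell. Gas1, a Hedgehog co-receptor, had 132 and 156 in osteogenic medium, against 558 and 518 in growth medium (change -1.90 ± 0.11). Gli2, a transcription factor of that pathway, had 118 and 160.1 in osteogenic medium, against 381 and 362 in growth medium (change -1.42 ± 0.13). Ccn1, a YAP target also known as Cyr61, had 3402 and 4494 in osteogenic medium, against 9878 and 8816 in growth medium (change -1.25 ± 0.14). Of the Notch list 5 of 20 fell (25.0%) and 0 rose, beside falls of 18.7% among genes with a mean of at least 50. The Wnt count was 11 without osteogenic replicate 1, the TGF-beta and BMP count was 13 without osteogenic replicate 1, and the Hedgehog, Hippo and YAP count was 7 without osteogenic replicate 1, 7 without growth replicate 1 and 9 without growth replicate 2.

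Many adhesion and guidance molecules of the cell surface fell. Of 43 tested cadherins and protocadherins 23 fell and 1 rose, with a median of -0.65 (-0.75 to -0.54 over the 4 library pairs). Cdh11, a mesenchymal cadherin, had 852 and 1079 in osteogenic medium, against 2416 and 2601 in growth medium (change -1.39 ± 0.11, adjusted p 1.1e-05). Fat1, a giant atypical cadherin and the most abundant member, had 13315 and 16297 in osteogenic medium, against 30274 and 27176 in growth medium (change -0.96 ± 0.12). Fat4, its relative in planar polarity, had 531 and 709 in osteogenic medium, against 1605 and 1846 in growth medium (change -1.49 ± 0.15). Of 62 axon guidance genes 20 fell and 4 rose. Slit3, a Robo ligand, had 336 and 444 in osteogenic medium, against 1921 and 1699 in growth medium (change -2.22 ± 0.12). Sema6d, a transmembrane semaphorin, had 208 and 262 in osteogenic medium, against 907 and 852 in growth medium (change -1.91 ± 0.13). Draxin, a secreted guidance factor, had 6.92 and 14.3 in osteogenic medium, against 158 and 170.2 in growth medium (change -3.91 ± 0.27). Lrp1, an endocytic receptor that clears proteases and modulates PDGF signalling, was very abundant and fell, with 16514 and 20906 in osteogenic medium, against 53458 and 54208 in growth medium (change -1.53 ± 0.13). The cadherin count was 15 without osteogenic replicate 1, 14 without growth replicate 1 and 13 without growth replicate 2, and the axon guidance count was 13 without osteogenic replicate 1 and 12 without growth replicate 1.

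Lists of ion channels and of receptors of vascular tone held more falls than rises, although most of their members did not pass. Of 45 calcium channel, pump and store genes 13 fell (28.9%) and 2 rose, and of 31 potassium channel genes 7 fell (22.6%) and 2 rose. The share of falls was 10.6% over all genes tested and 18.7% among those with a mean of at least 50. Cacna1c, the pore of the L-type calcium channel, had 526 and 645 in osteogenic medium, against 1308 and 1085 in growth medium (change -1.03 ± 0.12). Kcne4, a beta subunit of voltage-gated potassium channels, had 25.1 and 69.8 in osteogenic medium, against 327 and 294 in growth medium (change -2.86 ± 0.34). Clca3a2, of the CLCA family of secreted regulators of chloride conductance, fell most of all genes ranked, with 24.2 and 71.6 in osteogenic medium, against 1985 and 1990.0 in growth medium (change -5.54 ± 0.35, adjusted p 3.6e-06). It lies at chr3:144796559-144819494 beside the related Clca3a1, which fell too, with 125 and 208 in osteogenic medium, against 855 and 709.8 in growth medium (change -2.27 ± 0.19), and reads of these copies may be split. Among vasoactive receptors and cyclic nucleotide genes 19 of 74 fell (25.7%) and 5 rose. Avpr1a, the vasopressin receptor of vascular muscle, had 17.3 and 35.8 in osteogenic medium, against 225 and 210.0 in growth medium (change -3.07 ± 0.25). Npr3, the natriuretic peptide clearance receptor, had 1671 and 2212 in osteogenic medium, against 4959.8 and 5471 in growth medium (change -1.44 ± 0.12). Rgs5, a regulator of G protein signalling known from pericytes and arterial muscle, had 92.5 and 99.3 in osteogenic medium, against 309 and 334 in growth medium (change -1.73 ± 0.13). Counts of fallen genes were 4 without osteogenic replicate 1, 7 without growth replicate 1 and 6 without growth replicate 2 for calcium, 3 without osteogenic replicate 1 for potassium, and 12 without osteogenic replicate 1 and 10 without growth replicate 1 for the vasoactive list. The smooth muscle marker sums given above moved in the same direction, and their part in these falls was not tested.

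Genes of phosphate and mineral handling gave 4 rises and 6 falls among 23 tested. Slc20a1, the sodium-phosphate transporter PiT-1, rose, with 738 and 651 in osteogenic medium, against 428 and 340.3 in growth medium (change 0.86 ± 0.14, adjusted p 0.0011). Enpp2, autotaxin, which makes lysophosphatidic acid, was low in growth medium and rose, with 124 and 71.6 in osteogenic medium, against 12.8 and 18.6 in growth medium (change 2.53 ± 0.33). Fgf23, a hormone known from bone that makes the kidney excrete phosphate, fell, with 379.7 and 504 in osteogenic medium, against 2929 and 2324 in growth medium (change -2.57 ± 0.14, adjusted p 2.1e-06). It lies at chr6:127072902-127081408, and both of its growth values were several times both osteogenic values. Smpd3, a sphingomyelinase needed for bone mineralization in mice, fell, with 124 and 163 in osteogenic medium, against 355 and 425 in growth medium (change -1.45 ± 0.14). Of 21 osteochondrogenic factors and markers 2 rose and 7 fell, and the count of falls was 4 without osteogenic replicate 1, 4 without growth replicate 1 and 3 without growth replicate 2. Their median was -0.39 (-0.49 to -0.18 over the 4 library pairs), and 14 of the 21 changes were below 0. The member described here, Spp1, was among the rises and went against most of the list. Spp1, osteopontin, had 1192 and 468 in osteogenic medium, against 299 and 234 in growth medium (change 1.49 ± 0.31), with osteogenic libraries far apart, and it lost the call in a fit of only the 4 GFP libraries (adjusted p 0.11), without growth replicate 1 (adjusted p 0.082) and without growth replicate 2 (adjusted p 0.15).

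Metabolic lists differed in their medians, which were 0.28 for purine and pyrimidine synthesis, 0.13 for iron handling, -0.12 for glycolysis and -0.24 for cholesterol synthesis and uptake. Glycolysis had 1 rise and 5 falls among 25 genes, and cholesterol synthesis and uptake had 1 and 5 among 24. Plin2, the coat protein of lipid droplets, rose, with 4227 and 2953 in osteogenic medium, against 1212 and 1188 in growth medium (change 1.56 ± 0.14, adjusted p 3.6e-05). Srebf2, the transcription factor of cholesterol synthesis, fell, with 496 and 468 in osteogenic medium, against 852 and 990.3 in growth medium (change -0.93 ± 0.14), and lost the call without growth replicate 2 (adjusted p 0.055). Genes of purine and pyrimidine synthesis rose in 13 of 31 cases and fell in 2. Atic, which finishes the purine ring, had 1685 and 1339.9 in osteogenic medium, against 949.8 and 925 in growth medium (change 0.68 ± 0.11), while Ctps, CTP synthase, fell, with 1142 and 1376 in osteogenic medium, against 2859 and 2538 in growth medium (change -1.10 ± 0.11). Of 26 genes of iron handling and ferroptosis 8 rose and 4 fell. Steap4, a metalloreductase, had 131 and 203 in osteogenic medium, against 1423 and 1535 in growth medium (change -3.17 ± 0.17). Slc39a14, a carrier of iron, zinc and manganese, had 1269 and 1407 in osteogenic medium, against 3437 and 3063 in growth medium (change -1.28 ± 0.09). Cp, ceruloplasmin, a copper ferroxidase, had 2101 and 2728 in osteogenic medium, against 7985 and 7838 in growth medium (change -1.72 ± 0.12). Slc25a37, the mitochondrial iron carrier mitoferrin, rose, with 3316 and 2922 in osteogenic medium, against 1524 and 1436 in growth medium (change 1.07 ± 0.10). The purine and pyrimidine count was 4 without osteogenic replicate 1, 4 without growth replicate 1 and 7 without growth replicate 2, and the count of rises in iron handling was 4 without osteogenic replicate 1, 5 without osteogenic replicate 2, 5 without growth replicate 1 and 4 without growth replicate 2.

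Both high mobility group A genes rose. Hmga1 had 1746 and 1050.1 in osteogenic medium, against 409 and 382 in growth medium (change 1.77 ± 0.18, adjusted p 7.1e-05), with reads that a near-identical copy, Hmga1b, may share. Hmga2 had 1569.7 and 1140.4 in osteogenic medium, against 522 and 522 in growth medium (change 1.36 ± 0.15). Both are architectural DNA-binding proteins of embryonic and dividing cells. Hdac5, a class IIa histone deacetylase, fell, with 895 and 953 in osteogenic medium, against 1762 and 1689.5 in growth medium (change -0.90 ± 0.08). Of 53 Hox and patterning factors 15 fell and 2 rose, and the count of falls was 7 without osteogenic replicate 1, 8 without growth replicate 1 and 9 without growth replicate 2. Prrx1, a mesenchymal homeobox factor, had 2848 and 3662 in osteogenic medium, against 6024 and 6914 in growth medium (change -0.999 ± 0.12). Plagl1, an imprinted zinc finger gene, rose, with 171 and 158 in osteogenic medium, against 39.6 and 41.2 in growth medium (change 2.000 ± 0.19). Carmn, a noncoding RNA of smooth muscle and heart, fell, with 94.3 and 147 in osteogenic medium, against 436 and 336 in growth medium (change -1.69 ± 0.20).

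The ranking outside the sets put aside gave the following rises. Prl2c2, proliferin, rose most of the genes ranked, with 408 and 264 in osteogenic medium, against 20.98 and 39.9 in growth medium (change 3.46 ± 0.31), and near-identical copies such as Prl2c3 may share its reads. Havcr2, the checkpoint receptor TIM-3, had 384 and 241 in osteogenic medium, against 61.8 and 74.4 in growth medium (change 2.15 ± 0.25). P2rx3, a channel opened by ATP and known from sensory neurons, had 92.5 and 90.3 in osteogenic medium, against 25.6 and 18.6 in growth medium (change 2.02 ± 0.28), and it overlaps Ssrp1 on the genome. In each of these 3 the osteogenic values lay well above both growth values. The largest falls not yet given included Kif26b, an atypical kinesin, with 32.00 and 59.9 in osteogenic medium, against 784 and 814 in growth medium (change -4.16 ± 0.22). Scg2, secretogranin II of secretory granules, had 6.05 and 6.26 in osteogenic medium, against 134 and 99.7 in growth medium (change -4.03 ± 0.20). Fndc1, a fibronectin type III domain protein, had 378 and 575 in osteogenic medium, against 4418 and 4577 in growth medium (change -3.27 ± 0.16). Rtn1, a reticulon of the endoplasmic reticulum, had 6.92 and 11.6 in osteogenic medium, against 114 and 98.4 in growth medium (change -3.42 ± 0.24).

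**Figure D4:**
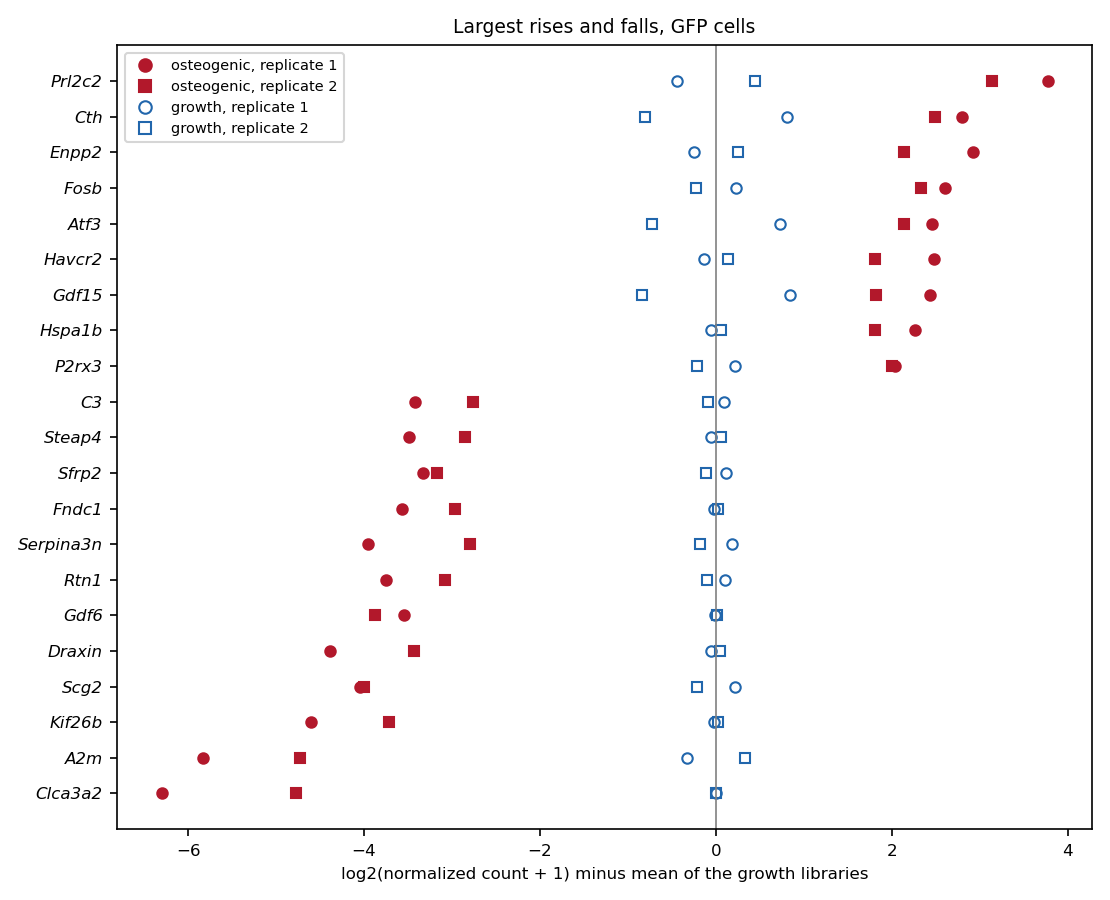
Log2 of the normalized count plus 1 in each GFP library minus the mean of the 2 growth libraries, for 9 of the 12 largest rises (top) and the 12 largest falls (bottom) named by the ranking rule. Osteogenic libraries (filled) and growth libraries (open) do not overlap in any of these genes, as the rule requires, and the growth libraries of Cth, Atf3 and Gdf15 are the most widely spaced.

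The same media were compared in THOC5 cells, where fewer genes passed the test. There 120 genes rose, or 0.532%, and 2 fell, or 0.00886%, which makes 0.54% in all. The difference of the 2 responses, GFP minus THOC5, passed the test for 2082 genes (9.22%), of which 885 had the higher change in GFP cells (3.92%) and 1197 the lower change (5.3%). Among genes with a mean of at least 50, 7.61% had the higher and 10.3% the lower change. It passed for 871 of the 2314 genes that rose in GFP cells and for 1145 of the 2384 that fell. Both groups were selected by their change in the GFP libraries, which also enter the difference. Their shares and medians are therefore not independent of that selection. These 2384 had a median change of -0.71 in GFP cells and -0.04 in THOC5 cells. Proteasome genes had a median of 0.70 in GFP cells and 0.03 in THOC5 cells, and the difference passed for 22 of 32. Ribosome biogenesis genes had 0.71 in GFP cells and -0.06 in THOC5 cells, and the difference passed for 41 of 56. Complement and acute phase genes had -1.43 in GFP cells and -0.08 in THOC5 cells, and 18 of 36 passed with the lower change in GFP cells. For DNA replication the medians were 0.43 in GFP cells and 0.14 in THOC5 cells, and 2 of 50 differences passed. Fgf23 had 2492 and 2882 in osteogenic medium, against 3177 and 3152 in growth medium, in THOC5 cells, where its change was -0.24 ± 0.14. The number of differences past the threshold was 612 without osteogenic replicate 1, 1751 without osteogenic replicate 2, 0 without growth replicate 1 and 103 without growth replicate 2 of the GFP cells. In limma without growth replicate 1, 5060 genes had an unadjusted p under 0.05. With all libraries edgeR called 2458 differences and DESeq2 1926.

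**Figure D5:**
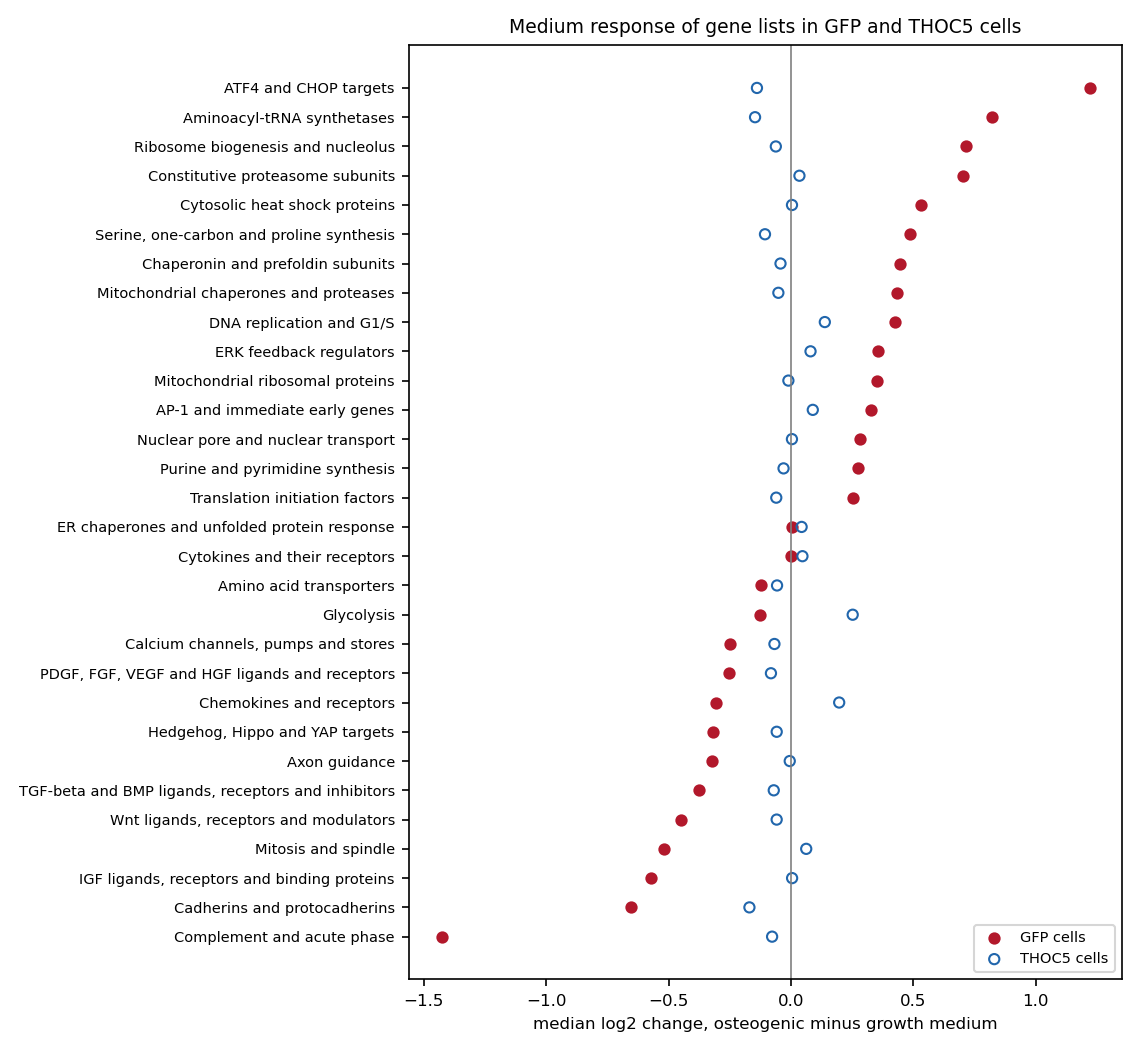
Median log2 change, osteogenic minus growth medium, of the same 30 gene lists in GFP cells (filled) and in THOC5 cells (open). GFP medians run from the complement list at the low end to the ATF4 list at the high end, whereas the THOC5 medians lie between -0.17 and 0.25.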

How the data were processed

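RNA-seq of polyadenylated RNA covered 4 GFP and 4 THOC5 libraries, grouped by sample title. Libraries were made with a TruSeq RNA V2 kit, per the labels' protocols, which does not mark strand, so overlapping or antisense genes cannot be separated. By GENCODE M21, 20 of the 135 genes named overlap another protein-coding gene. The deposited signal holds read counts per gene over a library's size factor, which the values themselves showed. Multiplying the authors' values by that factor gave whole reads for 100% of them, within 1e-06. The authors' deposited table also holds log2 fold changes and an adjusted p-value per gene, per the file headers. FastQC, Bowtie2, MACS2, SAMtools and mm10 are named without versions, per the submitters' processing notes, and the counting step is not given in the sources used here. RNA immunoprecipitation libraries were not analysed here.

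Normalized counts plus 1 were put on a log2 scale and fitted by limma 3.58.1 (R 4.3.3) with a trend, over the 22575 genes that reached 1 in 2 or more libraries. The 8 libraries, as 4 groups, entered 1 fit, so that the spread was shared, with 4 residual degrees of freedom, and Benjamini-Hochberg adjustment was applied over all genes per contrast at 0.05. Fold changes on this scale understate low genes. Whether replicates came from separate cultures is not stated in the labels, so p-values measure the spread between libraries, which may be technical. Up to 3 reads is taken as the floor that a count of 0 allows, or 2.59 to 3.99 normalized counts, for counting error only. The functions were tested on simulated data. Alternatives changed the pseudocount, filter, scaling, libraries or replicate block, or used edgeR 4.0.16 and DESeq2 1.42.0 on recovered reads.

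The comparison and the gene lists were chosen with earlier results of these data known. Genes named were, per list, up to 4 with the smallest adjusted p and the most abundant member, both with a mean of at least 50, and the 12 largest rises and falls whose groups were apart. The text gives part of those, and some are not reported here. Promoter motifs were counted on RefSeq's GRCm38.p6 table, matched by symbol, which held 13355 of the genes tested. All tested members of a list with a promoter there were counted, whatever their change.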

Additional observations from a re-analysis of the deposited data

Results flagged for a closer look

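The medium response differed between GFP and THOC5 cells, by limma's test of the difference at an adjusted p under 0.05, for 115 of the 135 genes named. The share was 9.22% over all genes tested and 17.9% among those with a mean of at least 50. The named genes were chosen largely by their change in the GFP libraries, which also enter the difference. A high share among them was therefore favoured by the choice. Values are the log2 change in GFP cells minus that in THOC5 cells. Without growth replicate 1 of the GFP cells 0 differences passed that test, although 5060 genes had an unadjusted p under 0.05, so no call of a difference below held without that library.

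Among genes of folding, degradation and ribosomes the difference was Psmd11 0.92, Psmd14 0.95, Psmb3 1.08, Hspa1b 2.29, Dnajb1 1.10, Hspb8 0.95, Pfdn6 1.10, Hspd1 1.04, Hspe1 1.23, Hspa9 1.22, Nop2 1.05, Riok2 0.88, Tsr1 1.08, Ncl 0.63, Gas5 0.94, Eif4e 0.83, Mrps31 1.22, Tomm70a 1.05 and Kpna1 1.17, and P4hb was the exception at -1.08. Among genes of tRNA charging, ATF4 and amino acids it was Wars 1.55, Rars 1.15, Nars 1.16, Asns 2.26, Atf3 2.81, Psph 2.49 and Aldh1l2 1.18, and for carriers it was Slc38a2 -0.66 and Slc7a6 -0.58. In the cell cycle it was Ccnd1 0.48, Cenpf -1.59, Ccnb2 -0.93 and Kif14 -1.45. Secreted and immune genes gave C3 -2.80, Saa3 -2.12, Lcn2 -1.91, A2m -5.22, Serpina3n -2.90, Il6st -1.26, Lifr -1.18, Socs3 -1.29, Cxcl12 -0.97, Ackr3 -1.91, Ptgis -0.68 and Ptger3 -1.25 for falls, and Ccl2 0.77, Ptgs2 1.32, Pla2g4a 0.60, Prl2c2 2.43, Havcr2 1.41 and P2rx3 2.03 for rises. Growth factor, ERK and AP-1 genes gave Pdgfrb -1.18, Pdgfra -1.12, Vegfd -2.16, Igf1r -0.61, Igfbp7 -0.83, Egfr -0.79 and Fosl2 -0.73 for falls, and Dusp4 0.91, Etv4 1.07 and Fosb 2.42 for rises. Developmental pathway genes gave Tgfb3 -1.18, Inhbb -1.82, Gdf6 -2.90, Fzd1 -1.16, Sfrp2 -2.91, Gas1 -1.80, Gli2 -1.36 and Ccn1 -1.04. Surface, channel and receptor genes gave Cdh11 -1.13, Fat1 -0.71, Fat4 -1.49, Slit3 -2.07, Sema6d -1.90, Draxin -3.38, Lrp1 -1.40, Cacna1c -0.79, Kcne4 -2.47, Clca3a2 -4.57, Clca3a1 -1.79, Avpr1a -2.72, Npr3 -1.21 and Rgs5 -1.34. Mineral and metabolic genes gave Slc20a1 0.996, Enpp2 2.89, Plin2 1.22, Atic 0.71 and Slc25a37 0.79 for rises, and Fgf23 -2.33, Smpd3 -1.45, Srebf2 -0.96, Ctps -0.80, Steap4 -2.67, Slc39a14 -1.18 and Cp -1.59 for falls. Chromatin, transcription and other ranked genes gave Hmga1 1.21, Hmga2 1.11 and Plagl1 1.96 for rises, and Hdac5 -1.01, Prrx1 -1.005, Carmn -1.42, Kif26b -3.79, Scg2 -2.99, Fndc1 -3.15 and Rtn1 -2.76 for falls. Genes of the remaining lists gave Arsb -0.78, Atp6v1h 1.02, Birc3 -0.997, Dbp -1.06, Dis3 0.89, Exosc1 1.36, Prex2 -1.22, Procr 0.78, Pros1 -0.81 and Zc3h12a -1.23. A negative value means that the log2 change was lower in GFP cells. The cause of these differences was not tested.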

How the results depend on the processing

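The 4698 genes called in GFP cells had the same sign in 13 of the 14 alternatives, and in the other, which tested genes with a mean of at least 10, the 4428 of them that were tested did. The number called was 2293 in a fit of only the 4 GFP libraries, with 1080 higher and 1213 lower, and between 2067 and 3502 with 1 GFP library left out, with 831 to 1592 higher and 1236 to 1910 lower. Leaving out a library left 1 in its group, which was assumed to vary like the other groups. Scaling to library totals gave 3720 higher and 1686 lower, and shifted the all-gene median by 0.13. edgeR called 4840 genes and DESeq2 3836. Differences between GFP and THOC5 responses numbered 2082, and 1122 with genes of any value above 0 tested, and between 0 and 1751 with 1 GFP library left out. A fit of only the GFP libraries gives no such difference. The replicate number of the titles as a replicate block gave 4723 calls, and no named gene lost or gained its call. Deviations of same-numbered libraries correlated between -0.12 and 0.25 over 6 pairs of groups, 3 of them negative. The highest value, 0.25, was that of GFP growth with THOC5 growth libraries, and the next was 0.04. The numbers were not taken to pair the libraries, and a replicate effect shared by the growth groups was not tested further. Of the 122 list counts, 41 moved by over 1.5 times under library totals, 73 with only the GFP libraries, 4 with edgeR, and between 38 and 89 with 1 library left out. Under library totals the direction with more calls switched in some lists. These included cytokines, with 13 rises and 12 falls, and endoplasmic reticulum chaperones, with 4 and 2. Among genes that did not pass, Ccnd2 changed sign to 0.0034 under library totals, and lay between -0.29 and 0.0086 with 1 library left out. Grem1 lay between -0.031 and 0.14 and Mrpl33 between -0.018 and 0.050 with 1 library left out, and both were below 0 without osteogenic replicate 1 and without growth replicate 2. Vcam1 changed sign to 0.0042 under library totals. The cause of these shifts was not tested.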

Other observations

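Of all genes tested, 10.3% rose and 10.6% fell, with a median log2 change of 0, and the counts of each list below stand beside that background, which was 19.1% and 18.7% among genes with a mean of at least 50. Where leaving out 1 library moved a count above 5 by over 1.5 times, brackets after it give the counts without osteogenic replicate 1, without osteogenic replicate 2, without growth replicate 1 and without growth replicate 2, in that order. The direction with more calls depended on the scaling in several of these lists. With libraries scaled to their totals, 15 lysosome genes rose and 8 fell, and 14 chromatin regulators rose and 6 fell. Rises and falls were then 12 and 8 for endocytosis, 6 and 4 for COPII, COPI and Golgi, 9 and 4 for NF-kB, and 12 and 2 for autophagy. In mRNA decay and surveillance 14 rose (6, 14, 10 and 7) and 6 fell (2, 2, 2 and 2) of 54 (median 0.18). Exosc1, a subunit of the RNA exosome, had 222 and 196 in osteogenic medium, against 101 and 81.1 in growth medium (change 1.19 ± 0.16). Dis3, the exosome's nuclease, had 719 and 655 in osteogenic medium, against 432 and 416 in growth medium (change 0.69 ± 0.10). Zc3h12a, the endonuclease Regnase-1, which degrades inflammatory mRNAs, fell, with 297 and 307 in osteogenic medium, against 633 and 689.9 in growth medium (change -1.13 ± 0.10). Of the NF-kB pathway 5 rose and 6 fell (3, 4, 4 and 4) of 36 (median -0.13), and the abundant adhesion molecule Vcam1 did not pass, with 13552 and 13690.2 in osteogenic medium, against 14947 and 15096 in growth medium (adjusted p 0.33). Among cell cycle inhibitors and apoptosis regulators 4 rose and 9 fell (5, 9, 6 and 5) of 35 (median -0.05). Mlkl, the effector of necroptosis, rose, with 1136 and 1094 in osteogenic medium, against 580.4 and 630.1 in growth medium (change 0.88 ± 0.08), while Birc3, an inhibitor of apoptosis proteins, fell, with 94.3 and 104 in osteogenic medium, against 196 and 223 in growth medium (change -1.07 ± 0.15). In plasminogen activation and coagulation 7 rose (4, 6, 3 and 6) and 8 fell of 27 (median 0.05). Procr, the protein C receptor, rose, with 483 and 414 in osteogenic medium, against 209.8 and 225 in growth medium (change 1.04 ± 0.11). Pros1, protein S, fell, with 567 and 664 in osteogenic medium, against 1327 and 1243 in growth medium (change -1.06 ± 0.09).

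In the lysosome list 9 rose (3, 5, 5 and 3) and 14 fell (7, 8, 6 and 9) of 55 (median -0.06). Arsb, an arylsulfatase that degrades dermatan sulfate, fell, with 543 and 563 in osteogenic medium, against 959 and 1001 in growth medium (change -0.82 ± 0.09), whereas Atp6v1h, a subunit of the proton pump, rose, with 1889 and 1764 in osteogenic medium, against 1087 and 849 in growth medium (change 0.92 ± 0.13). Among small GTPase regulators 5 rose and 16 fell (13, 13, 10 and 12) of 59 (median -0.15). Prex2, a Rac exchange factor, had 539 and 796 in osteogenic medium, against 1814 and 1833 in growth medium (change -1.48 ± 0.15). Of the circadian clock 6 rose (2, 3, 3 and 3) and 7 fell (4, 7, 4 and 4) of 23 (median 0). Dbp, a clock output factor, fell, with 64.9 and 59.03 in osteogenic medium, against 124 and 153 in growth medium (change -1.14 ± 0.18).

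The remaining lists gave counts as follows. Of sphingolipid genes 4 rose and 8 fell (6, 6, 4 and 6) of 30 (median -0.13), and of fatty acid and lipid storage genes 4 rose and 5 fell of 27 (median -0.14). Of TCA cycle and fatty acid oxidation genes 9 rose (3, 9, 4 and 3) and 5 fell of 39 (median 0.05), and of mitochondrial carriers and import genes 16 rose (2, 15, 5 and 5) and 3 fell of 41 (median 0.28). Of spliceosome genes 16 rose (5, 11, 7 and 8) and 3 fell of 58 (median 0.20), and of noncoding and imprinted genes 14 rose (5, 11, 10 and 7) and 10 fell (4, 7, 4 and 4) of 43 (median 0.24). Of chromatin regulators 9 rose (3, 5, 5 and 3) and 11 fell (3, 10, 5 and 5) of 57 (median -0.07), and of tubulins and motors 6 rose (3, 4, 3 and 2) and 7 fell (2, 5, 2 and 2) of 39 (median -0.04). Of autophagy genes 7 rose (2, 5, 4 and 2) and 7 fell (2, 5, 2 and 2) of 39 (median 0.04), and of COPII, COPI and Golgi genes 3 rose and 11 fell (4, 9, 6 and 4) of 39 (median -0.09). Of endocytosis and caveolae genes 5 rose and 9 fell (6, 8, 7 and 5) of 33 (median -0.01), and of metallothioneins and zinc carriers 2 rose and 5 fell of 16 (median -0.04). Of the EGF family 2 rose and 3 fell of 16 (median -0.01), of chloride channels and exchangers 3 rose and 12 fell of 42 (median -0.10), and of the proliferin and prolactin family 3 rose and 0 fell of 4 (median 1.69).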
